A study of Mus musculus with 3 samples.

Results

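Histone mRNA was examined in ST2, a stromal line from mouse bone marrow. The members were all rows of the deposited table with a unique name that begins with Hist1h, Hist2h, Hist3h or Hist4h, together with 9 named variant genes (H1f0, H1fx, H2afx, H2afy, H2afz, H2afv, H2afj, H3f3a and H3f3b). This gave 79 of the 51639 uniquely named genes, of which 70 are clustered histone genes and 9 are single-gene variants. The rule uses names and no measured value, although the gene set was picked with earlier results of these data known. The series holds 3 libraries, 1 in each of 3 groups, and every group was transfected with lipofectamine 3000 and an siRNA at 30 nM. In the control, empty vector was combined with control siRNA. The NELL2 overexpression cells received a NELL2 expression construct beside the control siRNA, and for Fn1 knockdown the empty vector was combined with Fn1 siRNA. No comparison has a replicate, so each difference is one between 2 libraries, and no test, error or p-value can be given.

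Clustered histone genes supply the bulk of new histone protein when DNA is copied in S phase. Their main mRNAs end just after a short stem-loop, which is bound by SLBP (stem-loop binding protein), and carry no poly(A) tail, although several of these genes are also known to make longer, polyadenylated transcripts. Single-gene variants lie outside the clusters, have introns in several cases, mostly end in a poly(A) tail and are mostly made throughout the cell cycle, although H2afx is known to make a stem-loop form as well. The libraries were built from RNA caught on oligo(dT) beads, so the values describe histone RNA recovered by poly(A) selection and not the total.

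Both targeted genes went the way the labels say. Nell2 stood at 0.640, 326 and 1.06 FPKM (fragments normalized to transcript length and library size), where values are given here and below in the order control, NELL2 overexpression, Fn1 knockdown. Fn1 stood at 2802, 2489 and 137 FPKM. All 10 stromal markers passed 1 FPKM, with Sparc and Col1a1 highest, and their sum was 5250, 5620 and 4790 FPKM. The macrophage, endothelial, epithelial and erythroid lists summed to at most 21.7, 2.0, 0.412 and 0.104 FPKM in any library. In the macrophage list, Lyz2 stood highest at 11.8, 13.9 and 7.22 FPKM, followed by Cd68 at 4.08, 3.54 and 1.57 FPKM, both lowest with Fn1 knockdown. Of the 4 list genes at 1 FPKM in any library, 2 were higher with Fn1 knockdown than in the control and 2 lower. Cd14 was highest there, at 1.74, 1.99 and 2.39 FPKM. Ptprc, a marker of all white blood cells singled out for that role, was at 0.0633 FPKM or less. The part of such cells in the histone values was not tested. The deepest library was estimated at 24200000 fragments and the shallowest at 23000000. A transcript of 0.5 kb, about the length of many clustered histone mRNAs, then has 11.5 to 12.1 fragments at 1 FPKM, so values near 1 FPKM rest on few fragments. Fragment numbers below are estimates from FPKM and annotated length, and counting error alone makes small ones imprecise.

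The stem-loop that ends the main histone mRNA is shown first, because transcripts that end just after it should be left out by poly(A) enrichment. Genes with the motif can also have longer annotated transcripts that run past it, as given below. The letters searched were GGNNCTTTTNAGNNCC on the sense strand of annotated transcripts (GENCODE M21, GRCm38), where N is any base. The motif was present in 44 of 70 clustered genes and in 1 of 9 single-gene variants, H2afx, against 78 of 21924 coding genes in all (0.356%), and 45 of those 78 were members. It began 21 to 58 bases after the stop codon in the clustered genes, with a median of 31. Only annotated sequence was searched. The motif therefore could not be found in the 15 coding clustered genes annotated to end within 2 bases of the stop codon, and their lack of it is not a result. Lines below run 5′ to 3′ with 7 flanking bases in lower case, or fewer where the transcript ends, and the motif in capitals.
Hist1h1c: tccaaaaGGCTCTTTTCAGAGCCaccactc
Hist1h2bg: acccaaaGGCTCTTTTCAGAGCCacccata
Hist3h2a: caccaaaGGCTCTTTTCAGAGCCacccaca
Hist2h3c1: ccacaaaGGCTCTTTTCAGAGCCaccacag
Hist2h2aa1: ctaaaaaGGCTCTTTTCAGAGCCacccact
Hist1h4i: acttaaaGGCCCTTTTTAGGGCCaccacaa
Hist1h4h: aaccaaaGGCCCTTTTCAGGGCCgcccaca
Hist1h4m: aactaaaGGCCCTTTTCAGGGCCatc
H2afx: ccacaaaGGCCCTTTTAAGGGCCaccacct
The motif of Hist1h1c lies at chr13:23739512-23739527 on the plus strand, that of Hist1h2bg at chr13:23571843-23571858 on the plus strand, and that of Hist3h2a at chr11:58955172-58955187 on the plus strand. Those of Hist2h3c1 and Hist2h2aa1 lie at chr3:96247327-96247342 and chr3:96246032-96246047, both on the plus strand. The H4 motifs lie at chr13:22040966-22040981 on the minus strand for Hist1h4i, at chr13:23531458-23531473 on the plus strand for Hist1h4h and at chr13:21812129-21812144 on the plus strand for Hist1h4m. That of H2afx lies at chr9:44335240-44335255 on the plus strand.

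The stem differed by family. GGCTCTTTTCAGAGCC was the form in 26 members and served H1, H2A, H2B and H3 genes, but no H4 gene, and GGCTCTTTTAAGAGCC was the form in 6 others from H1, H2B and H3. All 11 H4 genes with the motif had a stem that begins with GGCC or GGTC instead, as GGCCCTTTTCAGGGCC in 7, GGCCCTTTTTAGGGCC in 2 (Hist1h4i and Hist2h4) and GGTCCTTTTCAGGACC in 2 (Hist1h4b and Hist1h4j). The H2afx form, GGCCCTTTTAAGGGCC, was in no other member.

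Clustered histone RNA was sparse in these libraries, and 5 genes held most of it. Of the 70 clustered genes, 3 were listed at 0 in every library (Hist1h1t, Hist1h2aa and Hist2h2bb), 59 were above 0 in all 3, 47 stayed below 1 FPKM throughout, and 4 reached 10 FPKM in any library. The 5 highest in the control (Hist1h2bc, Hist1h1c, Hist1h2bg, Hist3h2a and Hist1h4i) held 80.2%, 76.8% and 79.4% of clustered FPKM. The median clustered gene was at 0.410, 0.376 and 0.426 FPKM. By contrast, all 9 single-gene variants passed 10 FPKM in at least 1 library, and their medians were 45.3, 42.1 and 38.8 FPKM. Summed, the clustered genes took 203, 226 and 254 FPKM (0.0509%, 0.0567% and 0.0641% of all FPKM), and the variants took 488, 548 and 419 FPKM (0.123%, 0.137% and 0.106%). In bulk RNA, fewer cells that make a transcript and less transcript per cell cannot be told apart.

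The most abundant clustered genes have annotated transcripts that run far past the stop codon, whereas genes annotated to end at the stop codon were low. Among 67 coding clustered genes, 15 have an annotated end within 2 bases of the stop codon, and none of these reached 1 FPKM in any library (highest 0.991 FPKM). A further 21 end 3 to 100 bases after it. Of these 9 reached 1 FPKM, and none passed 4.59 FPKM. The other 31 run more than 100 bases past the stop codon, 14 of them reached 1 FPKM, a share close to that of the middle class, and together they held 89.3%, 89.2% and 88.7% of clustered FPKM in the 3 libraries. Most of that was Hist1h2bc and Hist1h1c, without which the other 29 held 24.3%, 27.1% and 24.3%. FPKM divides by a transcript length, and the annotation the authors divided by is not given in the sources used here, so part of the spread between genes can come from that length. Annotated ends were not checked against reads, so they need not be the ends of the RNA in these cells.

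**Figure D1:**
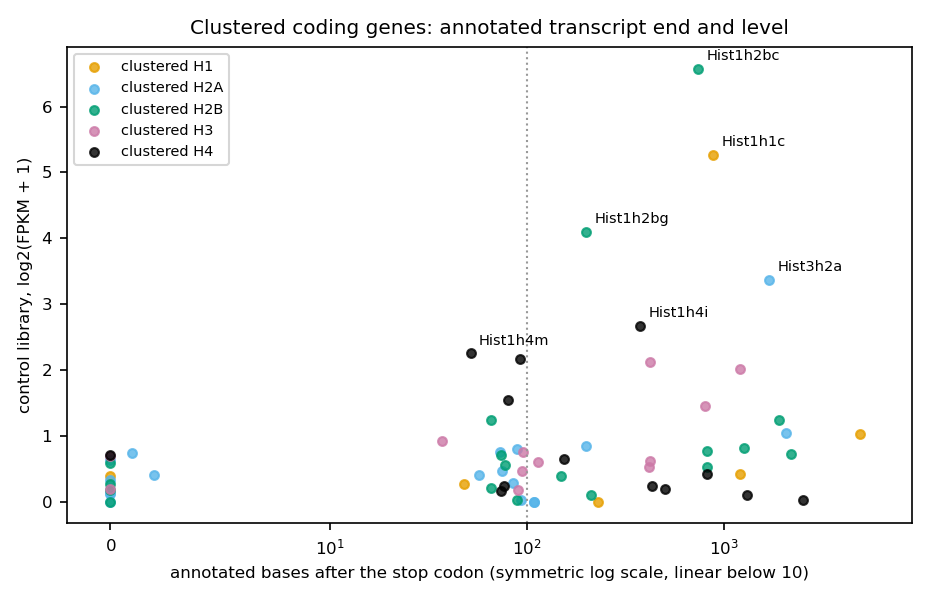
Each point is 1 of 67 coding clustered genes, by annotated bases after the stop codon (symmetric log axis) and by log2(FPKM + 1) in the control library, coloured by family. The 5 highest genes, from Hist1h2bc at 94.3 FPKM to Hist1h4i at 5.37 FPKM, all lie to the right of the dotted line at 100 bases.

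Measured from the stem-loop, the number of genes that reached 1 FPKM was nearly the same on either side of 100 bases (11 of 22 beyond it and 10 of 22 within it), and the sums differed. The 22 genes whose annotated transcript runs more than 100 bases beyond the motif summed to 83.6, 87.7 and 92.1 FPKM, mostly in Hist1h1c, Hist1h2bg and Hist3h2a, and the 22 that end within 100 bases of it summed to 16.1, 32.0 and 23.5 FPKM. In the NELL2 overexpression library 13.1 FPKM of the latter was Hist2h2aa1, and without it the sum was 18.9 FPKM there. Transcripts extend 840 bases past the motif in Hist1h1c, 155 in Hist1h2bg, 1643 in Hist3h2a and 330 in Hist1h4i. AATAAA or ATTAAA, the usual poly(A) signal, was found in the last 40 bases of an annotated transcript in 17 of 67 coding clustered genes and in 8 of 9 variants, against 79.1% of all coding genes. Of the members just named, Hist1h1c, Hist3h2a and Hist1h4i have one there and Hist1h2bg does not. That no signal was found says only that these letters are not in that window.

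Clustered H2B genes, which encode a core histone that pairs with H2A, made up 58.3% of clustered FPKM in the control. The largest share was that of Hist1h2bc (ENSMUSG00000018102.5, chr13:23684199-23692908, plus strand), at 94.3, 97.8 and 129 FPKM. Its annotated coding transcript is unusual among clustered genes, since it is spliced from 2 exons, runs 742 bases past the stop codon and lacks the motif. Hist1h2bg (chr13:23571396-23572013, plus strand), a single-exon gene with the motif, followed at 16.2, 19.5 and 24.2 FPKM. Both were lowest in the control and highest with Fn1 knockdown.

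The other H2B genes that reached 1 FPKM stood far below these. Hist1h2be was at 1.36, 1.34 and 1.61 FPKM and Hist1h2bj at 1.35, 1.48 and 1.58 FPKM. Hist1h2bh was at 0.762, 1.31 and 1.38 FPKM, Hist1h2bf at 0.631, 1.42 and 1.76 FPKM, and Hist1h2bk at 0.470, 0.748 and 1.04 FPKM. Each of these 5 was highest with Fn1 knockdown, where alone Hist1h2bk reached 1 FPKM, but Hist1h2bf rested on about 6.7, 16 and 20 fragments and Hist1h2bk on about 5.1, 8.4 and 12. The coding sequences of these 7 H2B genes are nearly alike, each with between 97.9% and 98.95% identity to its closest member (down to 87.93% over all H2B genes), and each of the 6 other H2B genes at 1 FPKM shares at least 1 stretch of 150 bases, the read length, with Hist1h2bc. Hist1h2bg shares 156 of its 469 such windows. How fragments from shared stretches were divided is not stated.

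Linker histone H1, which binds DNA between nucleosomes, was represented almost only by Hist1h1c (chr13:23738808-23740367, plus strand), at 37.5, 42.6 and 35.0 FPKM. None of its 150-base windows occurs exactly in a transcript of another annotated gene, though how inexact matches were assigned is not stated. Hist1h1d reached 1.05, 1.03 and 0.961 FPKM, and the other 4 clustered H1 genes stayed below 1 FPKM. Both genes differed little between the libraries.

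Among 20 clustered H2A genes, Hist3h2a (chr11:58954685-58956830, plus strand) led in the control and Fn1 knockdown libraries, at 9.33, 8.26 and 8.76 FPKM. It overlaps Trim17 on the same strand, which shares 560 of its 1997 windows. Hist1h2ac was at 1.06, 0.917 and 1.30 FPKM, Hist1h2ab at 0.692, 1.37 and 1.53 FPKM, and Hist1h2ad at 0.738, 0.772 and 1.09 FPKM. The last of these rested on about 15 fragments at most. Hist2h2aa1 was listed at 0 in the control and Fn1 knockdown libraries and at 13.1 FPKM with NELL2 overexpression.

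H4 and H3, the most conserved core histones, were low throughout. Of 13 H4 genes, Hist1h4i was highest at 5.37, 5.54 and 5.06 FPKM, and Hist1h4h was at 3.50, 3.89 and 4.54 FPKM. Neither shares a 150-base window with another gene. Hist1h4m (3.79, 3.55 and 4.59 FPKM) and Hist1h4n (1.90, 2.34 and 2.37 FPKM) have identical coding sequences and share 217 windows, so the pair is better read as a sum, of about 54, 58 and 69 fragments. Hist1h4a reached 0.575, 0.420 and 1.13 FPKM. Of 12 H3 genes, Hist2h3c2 was at 3.36, 3.14 and 4.12 FPKM and Hist2h3c1 at 3.03, 0.0714 and 4.02 FPKM. Hist1h3d was at 1.74, 1.14 and 2.33 FPKM and Hist1h3b at 0.682, 0.982 and 1.88 FPKM. Each of these 4 H3 genes was highest with Fn1 knockdown, but Hist1h3b reached 1 FPKM in that library alone, and over all 12 H3 genes 8 were higher there than in the control and 4 lower.

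**Figure D2:**
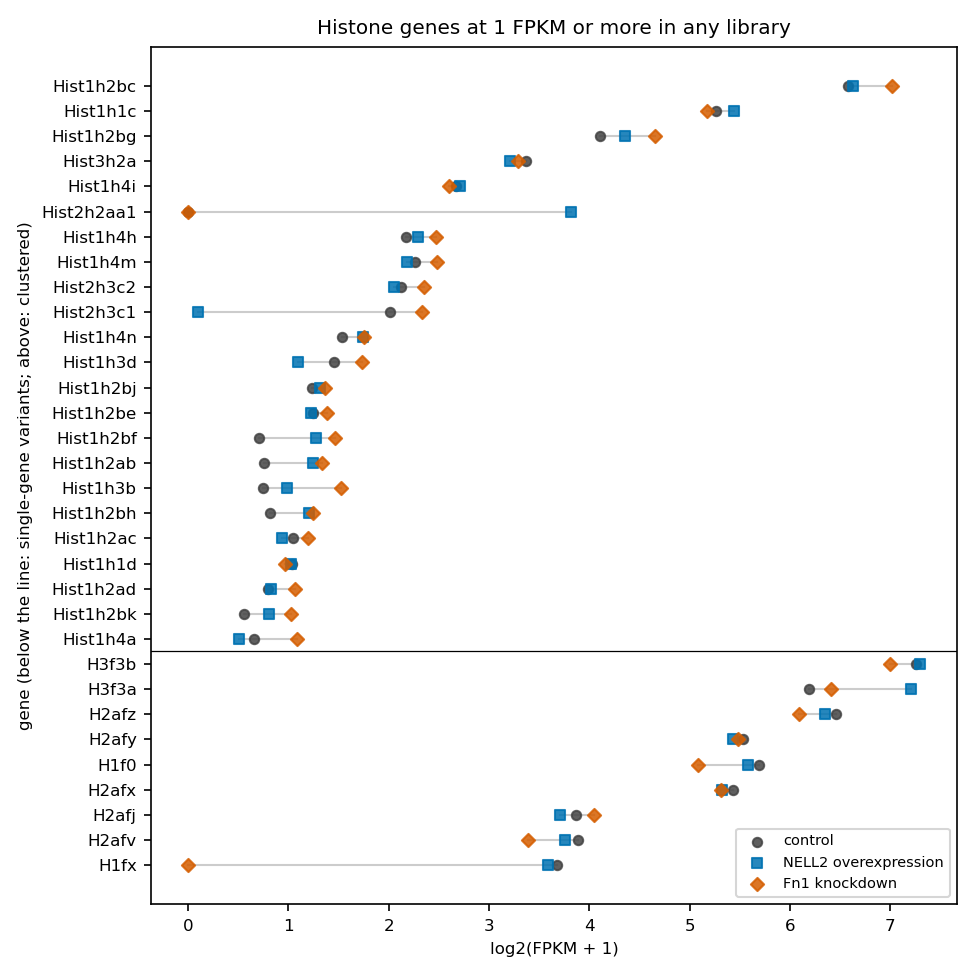
Levels of the 32 histone genes that reached 1 FPKM in any library, as log2(FPKM + 1), with 1 symbol for each library and a grey line over their span. Most spans are short, and the widest are those of Hist2h2aa1, Hist2h3c1 and H1fx, each with a library at or near 0.

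NELL2 overexpression left clustered histone RNA near the control level, apart from a pair of neighbouring genes in the Hist2 cluster. A gene counted as called if its log2(FPKM + 1) lay at least 1 away from the control value and its FPKM was 1 or more in either library, and 0.646% of 12544 genes were called in this comparison (0.367% higher and 0.279% lower). Of 19 clustered genes at that level, 2 were called, Hist2h2aa1 as higher and Hist2h3c1 as lower. Hist2h2aa1, like Hist1h2ab, Hist1h2bf and Hist1h2bh, passes that level through the NELL2 overexpression library alone, so its direction was fixed by the filter. Over all 70 clustered genes 37 were higher and 28 lower, and of 25123 genes of any kind above 0 in at least 1 library 48.8% were higher and 46.9% lower. The median difference in log2(FPKM + 1) was 0.05 for the 23 clustered genes at 1 FPKM in any library, beside 0.0071 over all 12705 such genes, and -0.01 for the 15 at 1 FPKM in the control. The clustered sum was 111% of the control, and 107% without the 2 called genes, a check chosen after seeing the data.

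By family, the clustered H2B sum was 108% of the control with NELL2 overexpression, the H1 sum 113% and the H4 sum 105%. None of the 7 H2B genes at 1 FPKM in any library was called, and their differences ran from -0.01 in Hist1h2be to 0.57 in Hist1h2bf. Of all 19 H2B genes 13 were higher and 5 lower, the same tally as with Fn1 knockdown, and the 2 comparisons share their control. The H2A sum was 181% and the H3 sum 59.2% of the control, and these 2 families hold the called pair. Among the other H3 genes, Hist2h3b, named after its values were seen, was 0.93 lower on the log2 scale, from 0.903 FPKM to a listed 0, and Hist1h3d was 0.36 lower, whereas Hist1h3b was 0.24 higher. Of all 12 H3 genes 4 were higher and 8 lower, with a median of -0.19.

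Both called genes share their sequence with another row of the table. Hist2h2aa1 (chr3:96245497-96246082) and Hist2h3c1 (chr3:96246685-96248509) lie side by side on the plus strand of chromosome 3, and Gm20634, a gene on that strand named here after its values were seen, overlaps both. All 1676 windows of Hist2h3c1 occur in Gm20634, as do 380 of 437 windows of Hist2h2aa1, which also shares 379 with its copy Hist2h2aa2. Gm20634 was at 3.34 FPKM with NELL2 overexpression and listed at 0 in the other 2 libraries. Hist2h3c1 was thus near 0 in the one library in which Gm20634 was not.

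The direction for Hist2h3c1 depends on which rows are pooled. On its own it had about 127, 3.1 and 177 fragments in the 3 libraries. With Gm20634 added the estimates were 127, 237 and 177, or 187% and 140% of the control, but Gm20634 also holds most windows of Hist2h2aa1, so its fragments need not come from Hist2h3c1. The 3 H3 rows without Gm20634 (Hist2h3b, Hist2h3c1 and Hist2h3c2) summed to about 216, 79 and 279 fragments, or 36.7% and 129% of the control. The 6 related rows of the locus (Hist2h2aa1, Hist2h2aa2, Hist2h3b, Hist2h3c1, Hist2h3c2 and Gm20634) summed to about 216, 495 and 288 fragments, or 230% of the control with NELL2 overexpression and 134% with Fn1 knockdown. With 3 further rows that share windows with these, Gm20632, Gm20633 and Gm20628, the estimates were 509, 864 and 695, or 170% and 136%, a sum chosen after seeing the data. Hist2h3b and Hist2h2aa2 are given for their shared sequence, although below 1 FPKM. Hist2h3b was at 0.903 FPKM in the control and listed at 0 in the other 2 libraries, and Hist2h2aa2 was listed at 0 except for 0.763 FPKM with Fn1 knockdown. The part that the division of shared fragments has in these values was not tested.

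**Figure D3:**
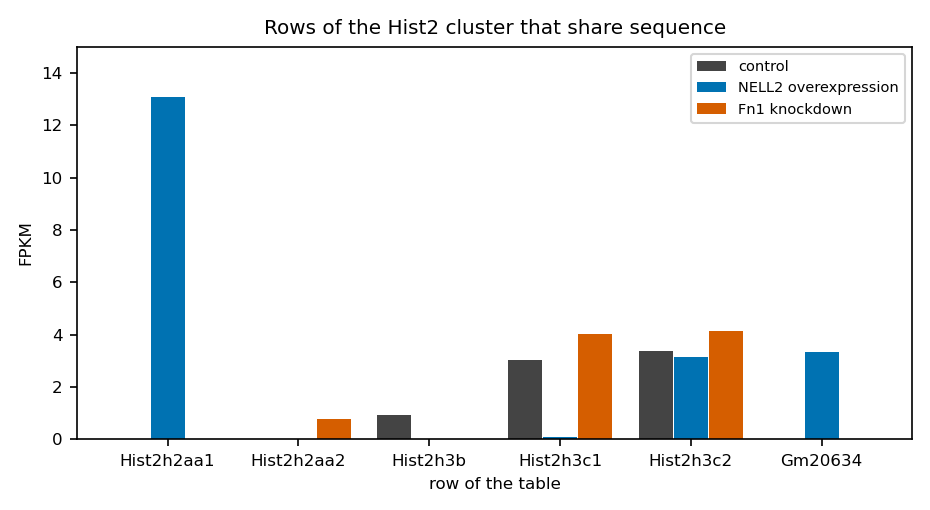
FPKM in the 3 libraries for 6 rows of the Hist2 cluster that share sequence. With NELL2 overexpression, Hist2h2aa1 (13.1 FPKM) and Gm20634 (3.34 FPKM) are above 0 and Hist2h3c1 is at 0.0714 FPKM, while Hist2h3c2 is much the same in all 3 libraries.

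Fn1 knockdown went with a slightly higher clustered histone sum, although no clustered gene was called. Most of the rise was in H2B genes, chiefly Hist1h2bc. In this comparison 1.23% of 12547 genes were called (0.677% higher and 0.550% lower), against 0 of 22 clustered genes. With a pseudocount of 0.1, 4 clustered genes were called, and with a 1.5-fold cutoff 2, all higher. Over all 70 clustered genes, whatever their level, 42 were higher and 24 lower, and of the 25123 genes of any kind above 0 in at least 1 library 45.7% were higher and 49.8% lower. The median difference in log2(FPKM + 1) over the 23 clustered genes at 1 FPKM in any library was 0.27, beside -0.0029 over all genes at that level. That filter admits Hist1h2ad, Hist1h2bk, Hist1h3b and Hist1h4a through the Fn1 knockdown library alone, so their direction was fixed by it. Of the 15 genes at 1 FPKM in the control, 11 were higher and 4 lower, with a median of 0.22 (-0.0083 over all 12280 such genes). The median was 0.08 over all 70 genes, and -0.04 over the 6 that reached 5 FPKM in any library, the opposite direction. Hist2h2aa1, among those 6 and among the 23, was listed at 0 in both libraries compared and adds a difference of 0.00. Over the 5 clustered genes of highest control FPKM the median was -0.07, with 2 higher and 3 lower. The control library is shared with the NELL2 comparison, so the 2 sets of differences are not independent.

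The clustered sum was 125% of the control with Fn1 knockdown, and 115% without Hist1h2bc. H2B genes held 64.9% of clustered FPKM, against 58.3% in the control, and their sum was 139% of the control. Hist1h2bc was at 136% of the control and Hist1h2bg at 150%, differences of 0.44 and 0.56 in log2(FPKM + 1). Of the other H2B genes at 1 FPKM in the control, Hist1h2be was 0.14 and Hist1h2bj 0.13 higher. Hist1h2bf, Hist1h2bh and Hist1h2bk, below 1 FPKM in the control, differed by 0.76, 0.43 and 0.47. Of all 19 H2B genes 13 were higher, 5 were lower and 1 was at 0.

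The H3 sum was 128% of the control, the H4 sum 114% and the H2A sum 108%. Hist1h3b differed by 0.78, on about 9.7 fragments in the control and 28 with Fn1 knockdown, the one library in which it reached 1 FPKM. The H1 sum was 93.7%, and Hist1h1c and Hist1h1d were 0.10 and 0.06 lower. Of the 23 clustered genes with no shared window, 11 were higher and 10 lower, and their sum was at 99.2% of the control. Of the 24 that share some but under 50% of their windows, which include Hist1h2bc, 15 were higher and 9 lower, and their sum was at 135%. Of the 23 that share 50% or more, 16 were higher and 5 lower, with a sum at 123%. The part of shared sequence in the difference was not tested.

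**Figure D4:**
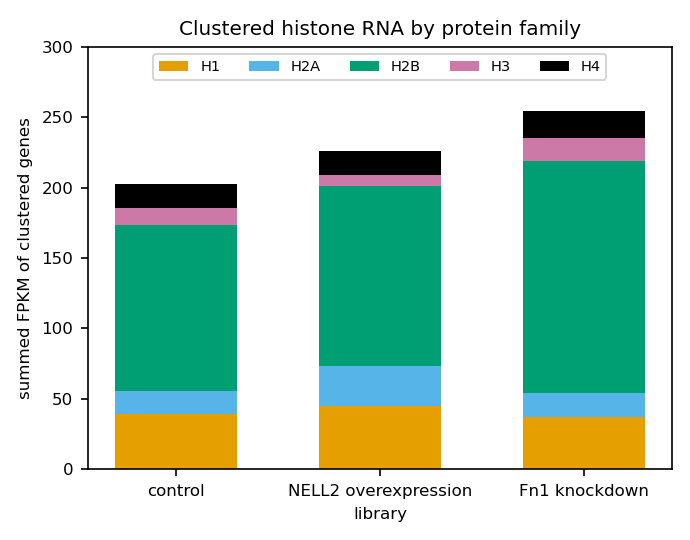
Summed FPKM of the clustered genes in each library, stacked by family. The whole bar goes from 203 in the control to 226 with NELL2 overexpression and 254 with Fn1 knockdown, and the H2B part from 118 to 128 and 165.

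The genes of DNA copying were lower in the same library. All 25 genes of a DNA replication and S phase list were lower with Fn1 knockdown, with a median of -0.39, though none was called. Over all genes at 1 FPKM in any library 50.5% were lower, with a median of -0.0029, and 1.23% of 12547 genes were called. Pcna, the sliding clamp of DNA polymerase, was at 90.7, 90.1 and 69.2 FPKM, and Rrm2, a subunit of the enzyme that makes deoxynucleotides, at 78.0, 75.4 and 57.6 FPKM. With NELL2 overexpression 19 of 25 were lower, with a median of -0.05, against 47.8% of all genes at that level. The replication list summed to 611, 584 and 458 FPKM, and the clustered H2B genes to 118, 128 and 165 FPKM.

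Genes that build and trim histone mRNA differed little as lists, although single members differed more. A list of 20 genes for histone 3′ end formation had 19 genes at 1 FPKM, with medians of -0.01 and -0.06 in the NELL2 and Fn1 comparisons. Slbp, singled out for its role, was at 17.5, 17.6 and 15.3 FPKM. The list's most abundant members, Snrpb and Snrpe, which encode Sm proteins of small nuclear RNPs, were at 86.7, 92.1 and 101 FPKM and at 49.5, 66.2 and 61.0 FPKM. All 15 genes of a cleavage and polyadenylation list were at 1 FPKM, with medians of 0.00 and -0.05. Cpsf4, a subunit of the cleavage and polyadenylation complex named here after its values were seen, was at 12.9, 7.60 and 7.80 FPKM, differences of -0.70 and -0.66. Papola, the main poly(A) polymerase, was at 55.3, 55.4 and 56.6 FPKM, and Pabpn1, which binds new poly(A) tails, at 38.2, 34.2 and 36.7 FPKM. No gene of either list was called in either comparison.

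Histone chaperones, which carry histones to and from DNA, had medians of 0.01 and -0.13 over 22 genes, of which 15 were lower with Fn1 knockdown. The share lower in that comparison over all genes at 1 FPKM in any library was 50.5%. Npm1 was at 486, 440 and 481 FPKM and Nap1l1 at 110, 99.3 and 100.3 FPKM, and none of the list was called. Of 10 further variant genes, most of them known from the germ line, 6 were listed at 0 in every library and 3 reached 1 FPKM. H2afy2, a macroH2A gene, was at 15.2, 14.0 and 14.5 FPKM, and Cenpa, the centromeric H3, at 12.6, 15.1 and 8.94 FPKM. Neither was called.

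Single-gene variants carried more FPKM than all clustered genes together, and in each comparison 1 of the 9 was called, beside the 0.646% and 1.23% of all genes called in the NELL2 and Fn1 comparisons. H3f3b and H3f3a, which both encode the replacement histone H3.3, stood at 152, 157 and 127 FPKM and at 72.2, 147 and 84.2 FPKM. H3f3a with NELL2 overexpression was the call, at 204% of the control and 1.02 on the log2 scale, just past the threshold of 1. With a pseudocount of 5 it was not called. H3f3b, which encodes the same protein, was at 103% in that comparison. H3f3a (chr1:180800832-180813943, minus strand) has 7 annotated transcripts and shares 613 of 2692 windows with other genes, chiefly with Gm17275 on the other strand, which was at 0.773, 0.588 and 0.628 FPKM.

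No H2A variant was called. H2afz, the H2A.Z gene, was at 86.9, 80.5 and 67.2 FPKM, and H2afv, the other H2A.Z gene, at 13.8, 12.5 and 9.46 FPKM. Both were lowest with Fn1 knockdown, at 77.3% and 68.8% of the control. H2afy, which encodes macroH2A, was at 45.3, 42.1 and 43.8 FPKM, and H2afx, whose protein is phosphorylated at DNA breaks, at 42.2, 39.1 and 38.8 FPKM. H2afj was at 13.6, 12.1 and 15.5 FPKM and was the one H2A variant that was higher with Fn1 knockdown.

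The linker variants were lower with Fn1 knockdown. H1f0, a replacement H1 of cells that have slowed or stopped dividing, was at 50.7, 46.9 and 32.9 FPKM, or 65.0% of the control, a difference of -0.61 that was not called. H1fx (chr6:87980421-87981637, minus strand) was at 11.8 and 11.0 FPKM and was listed at 0 with Fn1 knockdown, against about 331 and 317 fragments in the other libraries, and was called as lower. H1fx overlaps Gm47286 on the same strand, a name with no row of its own in the table, and Gm5577 on the other strand, which was at 1.51, 4.26 and 6.54 FPKM. Gm5577, looked at after its values were seen, was thus highest in the library in which H1fx was listed at 0. The part of these overlaps in the listed 0 was not tested.

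**Figure D5:**
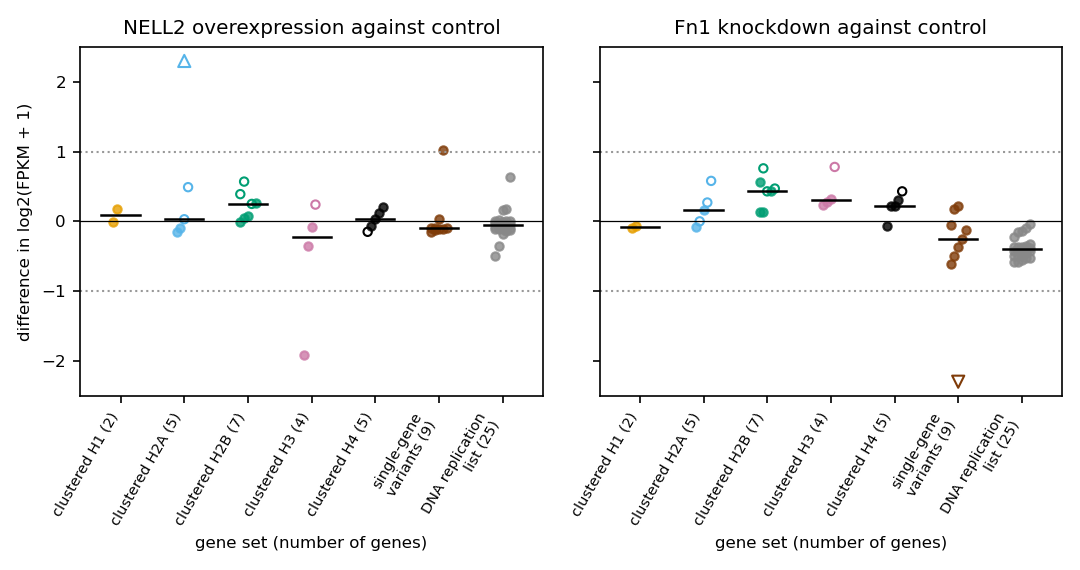
Difference in log2(FPKM + 1) from the control for histone genes that reached 1 FPKM in any library and for the DNA replication list, with a bar at each median and dotted lines at the threshold. Open circles mark genes below 1 FPKM in the control, and open triangles mark Hist2h2aa1 (control listed at 0) and H1fx (Fn1 knockdown listed at 0), whose size cannot be given. With Fn1 knockdown the 4 filled H2B points lie between 0.13 and 0.56, and all 25 replication genes lie below 0.

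As a set, the variants were at 112% of the control with NELL2 overexpression and at 85.7% with Fn1 knockdown. The first of these rests on H3f3a, since without H3f3a and H1fx it was 96.4%, whereas the second was then 82.7%. In each comparison 7 of 9 variants were lower, with medians of -0.10 and -0.26, against 47.8% and 50.5% lower and medians of 0.0071 and -0.0029 over all genes at 1 FPKM in any library.

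Promoters of the clustered genes also differ by family. RefSeq (GRCm38.p6) gave a promoter, 250 bases before to 50 after the start, for 61 clustered genes and 8 variants. The octamer ATTTGCAT, known to bind OCT1 at H2B genes, was searched on both strands and was in 7 of 16 H2B and 7 of 17 H2A promoters, and in none of the 6 H1, 10 H3 and 12 H4 promoters, against 1.97% of 27025 genes with a promoter in the table. H2A and H2B genes often face each other across 1 shared promoter. The CCAAT letters were in 52 of 61 clustered promoters (85.2%, against 41.1% of all) but in 3 of 12 H4 promoters, and TATAAA was in 35 of 61 (57.4%, against 15.7%). The stretch upstream of Hist1h2bg, the most abundant clustered gene whose RefSeq promoter holds the octamer, is printed with the octamer in capitals.
Hist1h2bg: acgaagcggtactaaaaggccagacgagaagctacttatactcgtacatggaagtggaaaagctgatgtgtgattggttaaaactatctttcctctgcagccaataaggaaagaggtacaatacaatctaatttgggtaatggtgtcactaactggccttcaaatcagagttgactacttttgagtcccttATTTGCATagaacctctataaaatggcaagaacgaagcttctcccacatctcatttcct
This is chr13:23571150-23571399 on the plus strand, and the octamer begins 59 bases before the start. Of the 6 H2B genes at 1 FPKM with a promoter in the table, Hist1h2be, Hist1h2bg and Hist1h2bk have the octamer, while Hist1h2bf, Hist1h2bh and Hist1h2bj do not. With Fn1 knockdown the differences were 0.14, 0.56 and 0.47 on the log2 scale in the first kind and 0.76, 0.43 and 0.13 in the second kind.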

How the data were processed

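RNA was enriched on oligo(dT) beads and sequenced as paired 150-base reads on an MGISEQ-2000. The submitters' processing notes name HISAT2, DESeq and GRCm38. The values used were FPKM per gene as deposited by the authors, with 1 library in each group. How FPKM was computed (program, version, annotation, strand) is not given in the sources used here. Of 51826 rows, 187 with a name on more than 1 row were left out, and 0 columns of per-sample values were unmatched.

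A gene was called when log2(FPKM + 1) differed from the control by 1 or more and FPKM was 1 or more in either library. Such a difference understates the change of low genes. With 1 library a group no test was run. Medians cover members that reached 1 FPKM in any library. The members and gene lists were chosen with earlier results of these data known. Named genes were every member at 1 FPKM or more or called, Nell2 and Fn1, and from each list the called members or else the 2 of highest mean FPKM. Exceptions are marked in the text, and the endothelial, epithelial and erythroid lists are given by their sums alone.

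Depth was estimated from the most frequent small value of FPKM times length among genes with 1 annotated transcript of at least 600 bases. Between 27.9% and 28.9% of low values lay within 0.02 of a whole fragment, so whole reads were not recovered. Transcript ends, motifs, overlaps and shared 150-base windows came from GENCODE M21 (GRCm38), searched with BLAST 2.17.0 and Biopython 1.88, and promoters from RefSeq. Calculations used Python 3.11.15, pandas 2.3.3 and numpy 2.4.6, and figures matplotlib 3.10.9. Alternatives were other pseudocounts, filters, fold cutoffs, a median-of-ratios scaling and sets of members.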

Additional observations from a re-analysis of the deposited data

How the results depend on the processing

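No paired analysis was possible because the groups hold 1 library each. Of 78 alternative values, 62 stayed close to the values reported (counts within 1.5 times, medians within 0.1, sums within 10 percentage points), 13 moved and 3 reversed, and the cause was not tested except where fewer genes or rows were used. The 2 clustered calls with NELL2 overexpression became 1 at a pseudocount of 5, 1 at a minimum of 5 FPKM, 0 without members that overlap another gene on the same strand and 1 with rows pooled with Gm20634, the last chosen after seeing the data. With a pseudocount and filter of 0.1, also chosen after seeing the data, 8 were called (2 higher and 6 lower), and with Fn1 knockdown 11 (8 higher and 3 lower). The 0 clustered calls with Fn1 knockdown became 4 with a pseudocount of 0.1 and 2 with a 1.5-fold cutoff, all higher. Among the variants, the call with NELL2 overexpression was lost with a pseudocount of 5 (0), and the 1 call with Fn1 knockdown became 2 with a 1.5-fold cutoff and 0 without H1fx, which overlaps another gene. The clustered median of 0.27 with Fn1 knockdown became 0.13 with a pseudocount of 5, 0.08 with no filter (70 genes) and -0.04 with a filter of 5 FPKM (6 genes). That of 0.05 with NELL2 overexpression became -0.01 over genes at 1 FPKM in the control, a filter chosen after seeing the data. The variant sum with NELL2 overexpression became 96.4% of the control without H3f3a and H1fx, chosen after seeing the data. Dropping the filter could not add calls at a pseudocount of 1, since no gene below 1 FPKM in both libraries can differ by 1. Depth limits genes near 1 FPKM, where a transcript of 0.5 kb has 11.5 to 12.1 fragments.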
